A study of Mus musculus with 36 samples.

Results

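Mouse carries 68 protein-coding genes whose symbols begin with Hist1h, Hist2h, Hist3h or Hist4h, and they were chosen here by that symbol pattern and by the biotype column of the count files, out of 46078 genes listed. They encode the replication-dependent histones: 6 linker histones H1 and 19 H2A, 18 H2B, 12 H3 and 13 H4 core histones. By symbol, 55 belong to the Hist1 cluster, 10 to Hist2, 2 to Hist3 and 1 is Hist4h4. RNA had been sequenced from RM-1-BM cells, a mouse prostate cancer line, and from RAW264.7 cells, a mouse macrophage-like line. The cancer cells carried either SPOP with the F133V change (SPOP picks the substrates of a cullin ubiquitin ligase) or an empty vector (EV), both by transduction. There were 4 groups of F133V cancer cells (coculture with olaparib, coculture with DMSO, alone with olaparib and alone with DMSO) and the same 4 groups of EV cancer cells. In the 4 macrophage groups RAW264.7 cells came from cocultures with F133V or with EV cancer cells, each with olaparib or DMSO. Cocultures were kept in transwells, olaparib is an inhibitor of PARP enzymes, and DMSO is its vehicle. Each of the 12 groups had 3 libraries. All cancer cell groups carry a transduced vector, and no macrophage group without cancer cells was analysed here. The labels name neither the clones behind each transduced line nor the promoter that drives the mutant, nor the dose or time of olaparib, and whether the 3 libraries of a group are separate cultures is not stated there. The p-values below therefore measure only the spread between these libraries.

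Libraries held between 30292309 and 43062440 gene counts (median 36623719.5). Histone members took only 992 to 4907 of these counts per library, and 45 to 59 of the 68 members had a count. Macrophage markers (14 genes, Lyz2 and Csf1r among them) summed to 10.6 to 23.3 CPM (counts scaled to a common library total) in cancer libraries and to 11196 to 13420 CPM in macrophage libraries. Lyz2 stood at 3.57 and 4.60 CPM in replicates 1 and 2 of the EV cells alone with DMSO, and counts of called members are given below without these libraries where that moves them. Their removal leaves 1 EV library alone with DMSO, which is then assumed to vary like the other groups, so a call that is lost with it does not show that the difference rests on the 2 libraries. Spop averaged 96.8 to 114 CPM over the 4 F133V groups and 111 to 125 CPM over the 4 EV groups. The counts do not separate a transduced SPOP transcript from the cell's own, so they do not check the genotype label.

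Replication-dependent histone genes are transcribed mainly in S phase, when new DNA has to be packed into nucleosomes. Their mRNAs mostly end in a conserved stem-loop in place of a poly(A) tail. The stem-loop is bound by SLBP, and the end is cut by a machinery that includes the U7 small nuclear ribonucleoprotein. H3 and H4 form the tetramer at the core of a nucleosome, H2A and H2B join it as dimers, and H1 binds the linker DNA. Some of these genes can also be read through to a downstream poly(A) signal, a form known from differentiated and from some cancer cells of mouse and human. Hist1h1c, Hist1h2bc, Hist2h2be, Hist3h2a and Hist4h4 were taken as the 5 members with such a known polyadenylated form.

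The stem-loop was searched for in the transcripts of GENCODE M21 (GRCm38) because it marks which mRNAs can end without a tail. The pattern was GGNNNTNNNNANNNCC with arms of 6 paired bases, and it was found in 44 of the 66 members that the annotation holds, against 4.8% of 21836 other protein-coding genes. A stem-loop past the end of an annotated transcript could not be found. Some models without a match are short, such as Hist1h4k with 312 bases and Hist1h2bl with 381 bases. A missing match therefore does not show that a gene lacks the stem-loop. The sequences below are read 5′ to 3′ with the stem-loop in capitals and 5 flanking bases on each side. They are those of members that carry the differences described later.
Hist1h1c: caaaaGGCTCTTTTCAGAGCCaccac
Hist3h2a: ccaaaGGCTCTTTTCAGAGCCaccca
Hist1h3d: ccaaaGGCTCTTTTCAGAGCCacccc
Hist2h3c2: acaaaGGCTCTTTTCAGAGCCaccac
Hist1h4i: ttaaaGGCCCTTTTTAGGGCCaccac
Hist2h4: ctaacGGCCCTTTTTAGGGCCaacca
Hist1h4h: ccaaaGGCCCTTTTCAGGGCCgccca
Hist4h4: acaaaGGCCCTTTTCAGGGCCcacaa
Hist1h4c: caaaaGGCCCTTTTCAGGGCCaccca
Hist1h4n: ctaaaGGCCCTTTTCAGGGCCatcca
Hist1h4b: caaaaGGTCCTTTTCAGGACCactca
In H1, H2A, H2B and H3 members the stem-loop always began with GGCTC, and in all 12 H4 members with a match it began with GGCCC or GGTCC. No match was found for Hist1h2bc or Hist2h2be in the annotated transcripts. The commonest form, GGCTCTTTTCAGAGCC, was held by 24 members. A poly(A) signal (AATAAA or ATTAAA in the last 50 bases) was found in 25.8% of members and in 78.0% of other protein-coding genes. This share too depends on where the annotated transcripts end.

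Hist1h1c lies at chr13:23738808-23740367 on the plus strand, Hist1h4i at chr13:22040636-22041362 on the minus strand, Hist1h4c at chr13:23697635-23698454 on the minus strand, Hist3h2a at chr11:58954685-58956830 on the plus strand and Hist4h4 at chr6:136801553-136804415 on the minus strand. Each of these has a single annotated transcript without an intron. Of the 66 annotated members, 53 lie on chromosome 13, 10 on chromosome 3, 2 on chromosome 11 and 1 on chromosome 6. Between 44 members with a stem-loop the annotated transcripts differ in how far they run past it. In 22 of them the model ends more than 100 bases later, and 12 of these hold a poly(A) signal. In the other 22 it ends within 100 bases, and 2 of these hold one. This split was made after the values had been seen and is a description only.

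Promoters came from RefSeq (GRCm38.p6), where 59 members matched with 60 promoters. A CCAAT box, on either strand, was present in 85.0% of these windows of 250 bases before to 50 after the start, against 37.4% of 32851 promoters of all genes. It was found in every H1, H2A, H2B and H3 promoter but in 25.0% of H4 promoters. TATAAA was present in 58.3% of member promoters and in 13.6% of all. The octamer ATTTGCAT was present in 41.2% of H2A and 40.0% of H2B promoters, in none of the H1, H3 and H4 promoters, and in 1.7% of all. The 250 bases before the start of 2 members that differ in opposite directions between F133V and EV cells are shown, Hist1h1c at chr13:23738557-23738806 on the plus strand and Hist1h4c at chr13:23698459-23698708 on the minus strand, with CCAAT in capitals.
Hist1h1c: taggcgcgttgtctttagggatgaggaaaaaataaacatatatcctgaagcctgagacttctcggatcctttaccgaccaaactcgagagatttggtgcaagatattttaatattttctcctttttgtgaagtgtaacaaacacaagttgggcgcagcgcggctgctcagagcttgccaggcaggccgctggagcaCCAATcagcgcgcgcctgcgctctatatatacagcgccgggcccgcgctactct
Hist1h4c: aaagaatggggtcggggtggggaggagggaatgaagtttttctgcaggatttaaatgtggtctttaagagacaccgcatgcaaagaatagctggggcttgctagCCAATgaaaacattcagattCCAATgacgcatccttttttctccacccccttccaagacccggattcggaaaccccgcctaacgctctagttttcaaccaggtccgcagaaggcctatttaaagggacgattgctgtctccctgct
Both carry CCAAT, 1 copy in Hist1h1c and 2 in Hist1h4c. A match is only a match of letters.

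Counts of this family need care. A word of 50 bases is shared with another gene in 62 of 66 annotated members, at least 50% of such words are shared in 33, and 25 overlap an exon of another gene. Such reads can be discarded or split by the counting, and without a known strand setting antisense overlaps cannot be told apart. Hist2h2be shares no word with another gene, Hist4h4 shares 7.1% of its words, Hist1h1c 8.5%, Hist1h4c 19.6%, Hist1h4i 28.9% and Hist1h2bc 30.1%. Hist1h4n (85.6%), Hist1h4k (71.5%), Hist1h2ad (67.1%), Hist2h3c2 (63.5%) and Hist1h4b (54.6%) are uncertain for this reason. Hist1h2bm, which M21 does not hold, could not be checked. Hist1h1e and Hist1h2be overlap each other, and Hist3h2a overlaps Trim17.

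All members together were scarce RNAs. Summed over the 68 members, F133V cells held 47.8 ± 0.71 CPM in coculture with olaparib, 36 ± 0.97 in coculture with DMSO, 58.3 ± 1.98 alone with olaparib and 57.5 ± 0.62 alone with DMSO (TMM-scaled CPM, SD, n = 3 each). EV cells held 91.9 ± 4.20 CPM in coculture with olaparib, 92.3 ± 2.61 in coculture with DMSO, 117 ± 2.41 alone with olaparib and 115 ± 2.06 alone with DMSO. The sum was lower in F133V cells than in EV cells in all 4 conditions, without overlap between libraries. The F133V sum was 0.39 of the EV sum in coculture with DMSO, 0.52 in coculture with olaparib and 0.498 in cells alone under either treatment. For comparison, H2afz, a histone variant gene outside the replication-dependent set with a polyadenylated mRNA, alone averaged 123 to 227 CPM over the 8 cancer cell groups, and H3f3b, which encodes the variant H3.3 and also has a polyadenylated mRNA, was higher in each of these groups. Fewer cells with a transcript and less transcript per cell cannot be told apart in such bulk samples.

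A few members supplied most of the counts. Over the 36 libraries Hist1h1c averaged 27.9 CPM, Hist1h2bc 24.9, Hist2h2be 8.83, Hist1h4i 5.30, Hist2h4 3.38 and Hist3h2a 2.80 CPM, and every other member averaged below 1.5 CPM. The 5 members with a known polyadenylated form made up 74.9% ± 0.81 of the member sum in EV cells alone with DMSO, and 47.3% ± 1.87 in F133V cocultures with DMSO, the lowest share of any group. Per kilobase of exon, Hist1h2bc led in EV cells alone with DMSO at 33.2 ± 0.37 CPM per kb, before Hist1h1c at 24.4 ± 1.05, Hist1h4i at 10.3 ± 0.57, Hist1h4h at 5.70 ± 0.69 and Hist1h4k at 4.00 ± 0.69 CPM per kb. In F133V cocultures with DMSO, Hist1h2bc stood at 7.96 ± 0.51, Hist1h4i at 5.92 ± 0.95, Hist1h4n at 2.78 ± 0.23, Hist1h4h at 2.43 ± 0.06 and Hist1h1c at 2.09 ± 0.07 CPM per kb. Hist1h1c was thus the second of the family per kb in the EV group and the fifth in the F133V group.

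The selection of RNA was not given in the sources used here: the labels speak of total RNA, the series text of mRNA profiles. Members whose annotated transcript ends within 100 bases of the stem-loop took 4.7% of all member counts, those whose model runs on took 52.2%, and members in which no stem-loop was found or that M21 does not hold took 43.1%. Some other RNAs without a poly(A) tail differed widely between groups. Rn7sk, the 7SK RNA that restrains transcription elongation, averaged 31.1 CPM in F133V cocultures with olaparib, 267 in F133V cocultures with DMSO, 76.2 in F133V cells alone with olaparib and 188 in F133V cells alone with DMSO. In the 4 EV groups it averaged 5.59 to 11.3 CPM. Gm26917, a long noncoding RNA model, made up 41530 CPM in F133V cocultures with DMSO and 2561 CPM in EV cocultures with DMSO. Whether Gm26917 has a poly(A) tail was not given in the sources used here. Genes of the snoRNA biotype, whose mature RNAs also lack a tail, did not follow this in cells alone with DMSO, summing to 125.2 ± 3.29 CPM in F133V cells and 124.5 ± 1.49 CPM in EV cells (CPM of gene counts, not TMM-scaled). In cocultures with DMSO they summed to 155.4 ± 2.68 CPM in F133V cells and 112.1 ± 1.82 CPM in EV cells. The part of these RNAs in the histone differences below was not tested.

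**Figure D1:**
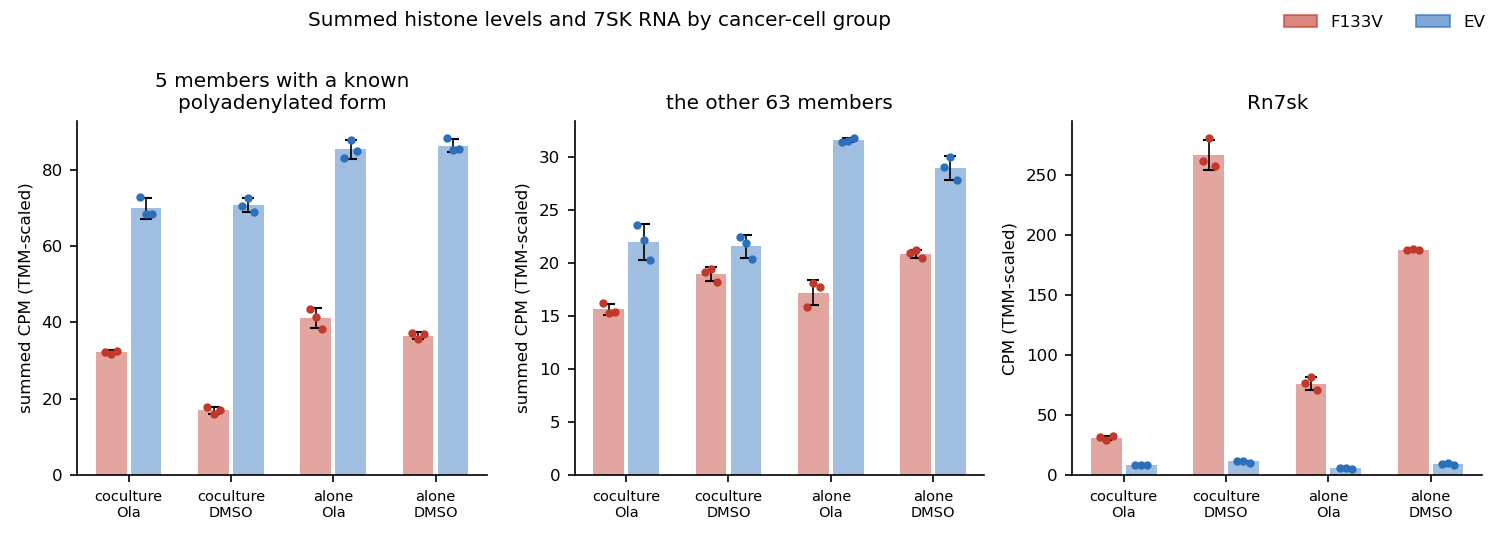
Summed CPM (TMM-scaled) of the 5 members with a known polyadenylated form, of the other 63 members and of Rn7sk in the 8 cancer cell groups. Points are libraries and bars are means of 3. The 5 members sum to 17.0 CPM in F133V cocultures with DMSO and to 70.7 CPM in EV cocultures with DMSO, while the other 63 sum to 19.0 CPM in the F133V group and 21.6 CPM in the EV group. In cells alone with olaparib the 5 members sum to 41.1 CPM in F133V cells and 85.4 CPM in EV cells. There the other 63 sum to 17.2 CPM in F133V cells and 31.6 CPM in EV cells.

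The filter on low counts left 36 members for testing in cancer cells and 18 in macrophages. Of the 36, 10 had at least 10 counts in every cancer library. The other 26 did not and could pass through the group where they are higher, so that a difference was built into their selection. Of those named below, Hist1h2bm, Hist1h3f and Hist1h4b reached 10 counts in every library of 0 of the 8 cancer cell groups, Hist1h2ad and Hist4h4 of 1, Hist1h4c of 2 and Hist1h3d of 4. Hist1h2ac did so in 5 groups, Hist1h4n in 6, and Hist1h4k and Hist1h1d in 7. Hist1h4k had 8, 17 and 8 counts in F133V cocultures with DMSO. Hist1h4n had 10, 9 and 13 counts in F133V cocultures with olaparib. The 32 members not tested in cancer cells had at most 144 counts over the 24 libraries, and 5 of them had none. Hist1h2al and Hist2h2bb were tested only in macrophages, 30 members were tested in neither cell type, and 4 (Hist1h2aa, Hist1h2ba, Hist2h2aa1 and Hist2h3c1) had no count in any library. Hist1h1t, the testis H1, reached at most 0.117 CPM in any library.

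F133V against EV cells asks what the SPOP mutant line changes. Of the 36 tested members, 14 were lower and 6 higher in F133V cells alone with DMSO (38.9% and 16.7%), against 34.0% of all 15962 genes tested that were lower and 33.7% that were higher. The median log2 difference was -0.30 for the members and 0.001 for all genes. With olaparib 15 were lower and 1 higher (background 33.2% and 34.3%), in cocultures with DMSO 14 lower and 9 higher (42.0% and 37.4%, in all 79.5%), and in cocultures with olaparib 10 lower and 1 higher (31.2% and 28.8%). The shares of lower members lay near the background, and the shares of higher members lay below it. The genotype cannot be told apart from any other difference between the 2 transduced lines.

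Hist1h1c, which encodes the linker histone H1c, was lower in F133V cells in all 4 conditions. In cocultures with DMSO it stood at 3.14, 3.28 and 3.35 CPM in F133V libraries, against 23.4, 24.8 and 23.3 CPM in EV libraries. Cells alone with DMSO gave 11.8, 12.0 and 12.9 CPM in F133V libraries and 40.0, 37.1 and 37.3 CPM in EV libraries. All F133V libraries lay below all EV libraries in both conditions. The log2 fold change was -2.87 ± 0.08 (SE) in coculture (adjusted p = 5.8e-29) and -1.64 ± 0.06 alone (adjusted p = 2.4e-25; by the quasi-likelihood test of edgeR, adjusted after Benjamini and Hochberg, as for every adjusted p below). Hist1h2bc, an H2B gene, followed the same order with 9.88, 8.79 and 8.94 CPM in F133V cocultures with DMSO, against 38.9, 38.6 and 37.0 CPM in EV cocultures with DMSO (log2 fold change -2.05 ± 0.06, adjusted p = 2.4e-28).

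In all, 7 members were lower in F133V cells in every one of the 4 conditions (Hist1h1c, Hist1h2ad, Hist1h2bc, Hist1h2be, Hist1h3d, Hist1h4h and Hist1h4i), none was higher in every one, and none was higher in one and lower in another. The shares of all genes called the same way in all 4 conditions were not counted. These member counts therefore have no background beside them and are a description only. Hist1h1c, Hist1h2bc, Hist1h2be, Hist1h4h and Hist1h4i had at least 10 counts in every cancer library, whereas Hist1h2ad and Hist1h3d passed the filter through some groups only. The call of Hist1h2be in cocultures with DMSO was lost without replicate 1 of the F133V cells (adjusted p = 0.073) or replicate 3 of the EV cells (adjusted p = 0.066). Hist1h4i, the most abundant H4 member, was at 3.94, 3.6 and 3.84 CPM in F133V cells alone with DMSO, against 7.58, 7.81 and 7.0 CPM in EV cells alone with DMSO. In cocultures with DMSO the gap was smaller, with 5.06, 4.15 and 3.70 CPM in F133V libraries and 6.29, 5.09 and 5.33 CPM in EV libraries. There the highest F133V library lay just below the lowest EV library (log2 fold change -0.36 ± 0.11, adjusted p = 0.002). Hist1h3d, an H3 gene, reached -3.17 ± 0.48 in cells alone with DMSO (adjusted p = 2.6e-07), with 0.119, 0.103 and 0 CPM in F133V libraries and 0.808, 0.747 and 0.544 CPM in EV libraries. Hist1h2ad had 1 count over the 3 F133V coculture libraries with DMSO and 22 over the 3 EV coculture libraries with DMSO, a ratio of 0.0459 with a 95% counting interval of 0.00111 to 0.284.

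Higher in F133V cells were mostly members of low level. Hist1h1e, with at least 10 counts in every cancer library, was also called higher with DMSO, both alone and in coculture. Alone it had 67, 70 and 72 raw counts in F133V libraries and 50, 61 and 63 in EV libraries. In coculture it had 55, 40 and 54 raw counts in F133V libraries and 35, 42 and 38 in EV libraries. Hist4h4, Hist1h4c and Hist1h2bm passed the filter without 10 counts in every group, and their values are a description of members that were kept for being high in some libraries. Hist4h4, the only member of its cluster, stood at 0.507, 0.334 and 0.381 CPM in F133V cells alone with DMSO, against 0.0758, 0.0482 and 0 CPM in EV cells alone with DMSO (log2 fold change 3.18 ± 0.56, adjusted p = 5.1e-06). It was also higher in F133V cells alone with olaparib (2.17 ± 0.71, adjusted p = 0.0071) and in F133V cocultures with DMSO (1.85 ± 0.50, adjusted p = 0.0011). It is the exception among the 5 members with a known polyadenylated form, of which Hist1h1c and Hist1h2bc were lower in all 4 conditions. Hist1h4c, another H4 gene, was at 0.686, 0.617 and 0.586 CPM in F133V cells alone with DMSO, against 0.202, 0.169 and 0.0259 CPM in EV cells alone with DMSO (2.21 ± 0.46, adjusted p = 6.3e-05). Hist1h2bm, which M21 does not hold, was higher by 2.30 ± 0.56 alone and by 2.60 ± 0.54 in coculture with DMSO (adjusted p = 0.00044 and 4.6e-05), and in cells alone the difference was 1.51 (adjusted p = 0.095) against the 1 EV library left without the 2 with Lyz2. Hist4h4, Hist1h4c and Hist1h2bm averaged less than 1 CPM in both groups.

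In F133V cocultures with DMSO further members with a known polyadenylated form were lower. Hist3h2a, an H2A gene, gave 1.35, 0.863 and 1.14 CPM in F133V libraries, against 3.16, 3.64 and 4.01 CPM in EV libraries (log2 fold change -1.69 ± 0.18, adjusted p = 6.3e-11). In cells alone with DMSO its libraries overlapped, with 3.04, 4.47 and 3.28 CPM in F133V cells and 3.33, 2.96 and 4.22 CPM in EV cells. Hist2h2be, an H2B gene, was also lower in coculture with DMSO, at 3.17, 2.67 and 3.46 CPM in F133V libraries and 5.02, 5.42 and 4.50 CPM in EV libraries (-0.70 ± 0.11, adjusted p = 4.9e-07). The 5 members, with Hist1h1c and Hist1h2bc holding most of their EV sum, together reached 0.241 of the EV level in coculture with DMSO. The other 63 members summed to 0.877 of it. In the other conditions too, the 63 members summed to less in F133V cells than in EV cells. Alone with olaparib they held 17.24 CPM in F133V cells and 31.62 CPM in EV cells, and the 5 members held 41.08 and 85.37 CPM. The 63 members held 20.89 and 29.01 CPM alone with DMSO, and 15.66 and 22.03 CPM in coculture with olaparib. By the other split, made after the values had been seen, 7 of 11 tested members with a poly(A) signal were lower and 1 higher in coculture with DMSO, and 7 of 24 without one were lower and 7 higher, where 42.0% of all genes were lower and 37.4% higher. By sums this split differed little there. Members with a signal held 15.74 CPM in F133V cells and 43.97 CPM in EV cells. Those without one, Hist1h2bc among them, held 19.78 CPM in F133V cells and 48.15 CPM in EV cells. In F133V against EV cells alone with DMSO, leaving out replicate 1 or replicate 2 of the EV cells gave 18 and 19 called members. Without both, 11 of 42 tested members were called against the single EV library left, 9 lower and 2 higher.

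**Figure D2:**
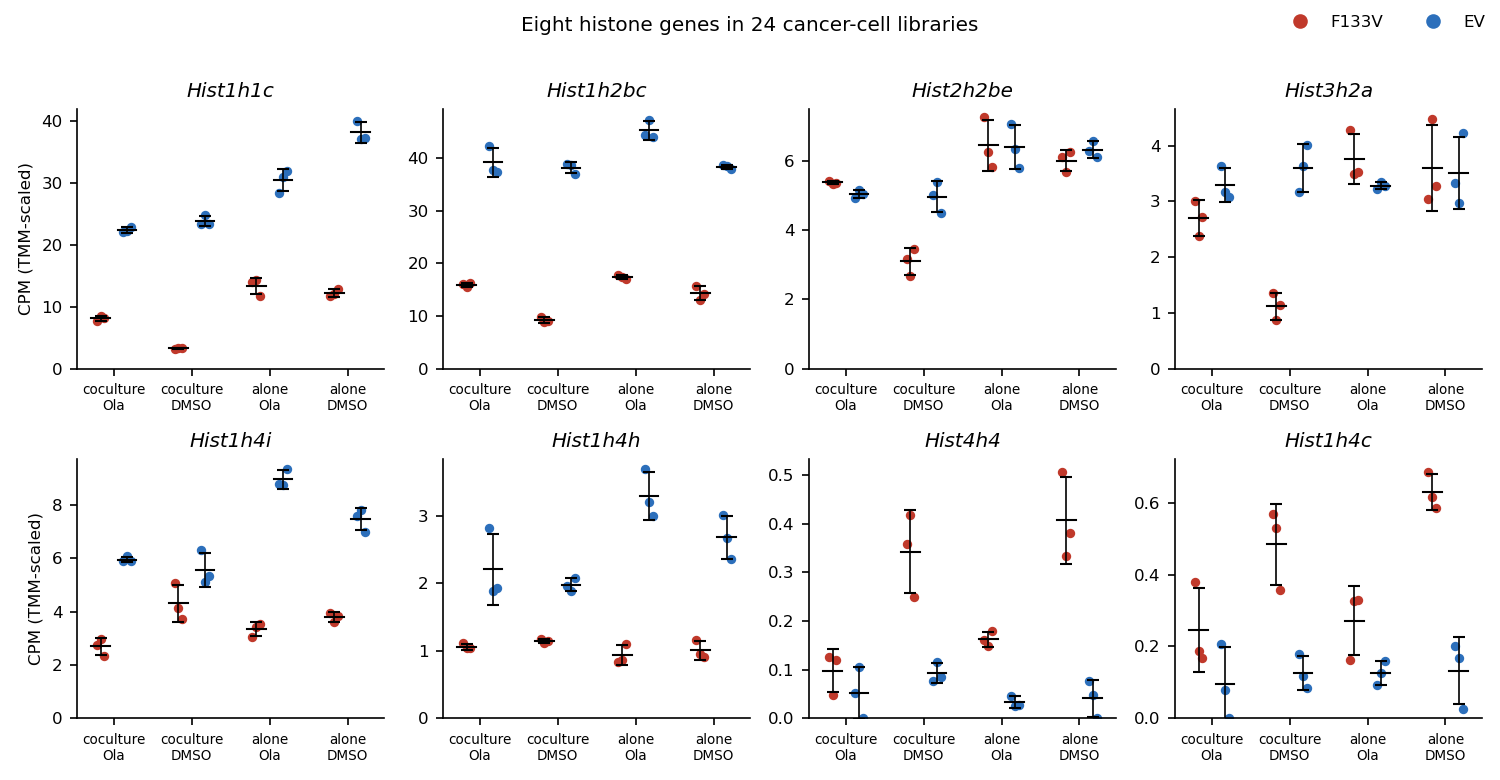
CPM (TMM-scaled) of 8 members in the 8 cancer cell groups, 1 point per library with the mean of 3. Hist1h1c and Hist1h2bc lie lower in F133V groups than in EV groups throughout, and Hist4h4 and Hist1h4c lie higher in F133V cells alone with DMSO than in EV cells alone with DMSO.

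Olaparib against DMSO asks what PARP inhibition changes within each line. In F133V cocultures, 9 of 36 members were higher and 11 lower with olaparib (25.0% and 30.6%), where 76.3% of all genes were called, 39.3% higher and 37.0% lower. The abundant members with a known polyadenylated form were higher. In the other 3 settings few members passed: 1 higher and 4 lower in F133V cells alone (background 18.2% and 17.9%), 4 higher and 1 lower in EV cells alone (15.3% and 15.1%, in all 30.4%), and none in EV cocultures, where 23.6% of all genes were called. In that last comparison 2 members reached an unadjusted p under 0.05 with edgeR, and DESeq2 called none.

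In F133V cocultures Hist1h1c gave 7.63, 8.53 and 8.16 CPM with olaparib, against 3.14, 3.28 and 3.35 CPM with DMSO. All olaparib libraries lay above all DMSO libraries (log2 fold change 1.32 ± 0.10, adjusted p = 1.6e-15), and they remained below the 22.0 to 22.9 CPM of EV cocultures with olaparib. Hist1h2bc (0.79 ± 0.07, adjusted p = 1.9e-13), Hist2h2be (0.81 ± 0.11, adjusted p = 1.9e-08) and Hist3h2a (1.28 ± 0.19, adjusted p = 1.2e-07) were higher too. Among H3 and H4 members, Hist2h3c2 had 1.26, 1.55 and 1.11 CPM with olaparib and 0.329, 0.417 and 0.356 CPM with DMSO (1.82 ± 0.30, adjusted p = 1e-06), and Hist1h4k was higher by 1.68 ± 0.30 (adjusted p = 3.6e-06). The sum of the 5 members was 1.89 times as high with olaparib as with DMSO, and that of the other 63 was 0.826 times as high. Split by the poly(A) signal, both sums were higher with olaparib. Members with a signal held 23.38 CPM with olaparib and 15.74 CPM with DMSO, and those without one held 24.24 and 19.78 CPM.

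The members that were lower with olaparib in F133V cocultures were mostly of low level. Hist1h4n, an H4 gene, had 0.253, 0.211 and 0.314 CPM with olaparib, against 1.14, 1.31 and 1.14 CPM with DMSO (log2 fold change -2.20 ± 0.30, adjusted p = 2.2e-08). Hist4h4 had 0.126, 0.047 and 0.121 CPM with olaparib and 0.359, 0.417 and 0.249 CPM with DMSO (-1.80 ± 0.49, adjusted p = 0.0013). Here Hist4h4 again moved opposite to the other 4 members with a known polyadenylated form. Hist1h4i fell to 2.75, 2.98 and 2.34 CPM with olaparib, against 5.06, 4.15 and 3.70 CPM with DMSO (-0.68 ± 0.12, adjusted p = 2.5e-06). Hist1h1e, a linker histone gene, fell by 1.32 on the log2 scale (SE 0.23, adjusted p = 2e-06) and Hist1h4b by 2.02 (SE 0.51, adjusted p = 0.00054). Of 11 tested H4 members 2 were higher and 5 lower, and of 6 H3 members 2 were higher and none lower, counts to be read against the 39.3% of all genes that were higher and the 37.0% that were lower.

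In EV cells alone, Hist1h1c moved the other way, with 28.4, 30.9 and 31.9 CPM with olaparib and 40.0, 37.1 and 37.3 CPM with DMSO (log2 fold change -0.33 ± 0.05, adjusted p = 1.1e-06). Hist1h2bc was higher with olaparib, at 44.4, 47.3 and 44.0 CPM, against 38.6, 38.5 and 37.9 CPM with DMSO (0.24 ± 0.04, adjusted p = 4.8e-05). Neither member's libraries overlapped between treatments. Hist1h4i was higher by 0.26 ± 0.09 (adjusted p = 0.019), a call that was lost without replicate 3 of either treatment (adjusted p = 0.085 and 0.098). Without replicate 3 of either treatment 2 members were called in place of 5, and 2 of 42 were called with the single DMSO library left without the 2 with Lyz2. In F133V cells alone Hist1h2bc was higher by 0.28 ± 0.06 (adjusted p = 0.00029) and Hist1h1e fell by 0.78 ± 0.20 on the log2 scale (adjusted p = 0.0016). Hist4h4 fell by 1.30 (SE 0.45, adjusted p = 0.02), Hist1h4c by 1.22 (SE 0.42, adjusted p = 0.02) and Hist1h4n by 0.85 (SE 0.30, adjusted p = 0.024). Each of these 3 calls was lost on leaving out a single library, replicate 1 with DMSO for Hist4h4 and Hist1h4c (adjusted p = 0.096 and 0.06) and replicate 2 with DMSO for Hist1h4n (adjusted p = 0.13). Without replicate 1 or replicate 2 with olaparib 3 members were called in place of 5.

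Coculture against monoculture asks what the macrophages change in the cancer cells. Most members were not called, and those that were called were mostly lower in coculture. In EV cells 7 were lower and none higher with DMSO (19.4% of 36, background 18.6% lower and 23.4% higher), and 8 lower and none higher with olaparib (22.2%, background 18.5% and 25.5%). In F133V cells 9 were lower and 2 higher with DMSO (25.0% and 5.6%, background 34.8% and 35.6%, in all 70.3%), and 5 lower and none higher with olaparib (13.9%, background 26.5% and 26.7%). The median log2 difference of the members was -0.42 in EV cells with DMSO, -0.43 in EV cells with olaparib, -0.33 in F133V cells with DMSO and -0.34 in F133V cells with olaparib, and that of all genes lay between -0.01 and 0.01. The shares of lower members were near or below the background, and the shares of higher members were below it. The count fell to 4 in EV cells with DMSO without replicate 2 of the cocultures, and to 3 in F133V cells with olaparib without replicate 1 of the cells alone.

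Hist1h1c was lower in coculture in both lines and under both treatments. With DMSO it stood at 3.14, 3.28 and 3.35 CPM in F133V cocultures, against 11.8, 12.0 and 12.9 CPM in F133V cells alone (log2 fold change -1.91 ± 0.09, adjusted p = 4.7e-21). In EV cells with DMSO the values were 23.4, 24.8 and 23.3 CPM in coculture and 40.0, 37.1 and 37.3 CPM alone (-0.68 ± 0.05, adjusted p = 4.3e-14). The groups did not overlap in either line. With olaparib it was lower in coculture by 0.72 ± 0.07 in F133V cells and by 0.44 ± 0.05 in EV cells on the log2 scale (adjusted p = 2.4e-11 and 5.6e-09).

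Other members of F133V cocultures with DMSO stood well below F133V cells alone. Hist3h2a had 1.35, 0.863 and 1.14 CPM in coculture and 3.04, 4.47 and 3.28 CPM alone (log2 fold change -1.71 ± 0.18, adjusted p = 9.6e-11). Hist2h3c2, an H3 gene, had 0.329, 0.417 and 0.356 CPM in coculture and 1.22, 1.03 and 1.17 CPM alone (-1.61 ± 0.31, adjusted p = 1.9e-05). Hist2h2be was lower by 0.97 ± 0.11 on the log2 scale and Hist1h2bc by 0.63 ± 0.07 (adjusted p = 4.2e-10 and 2.5e-10). The 2 members that were higher in coculture were Hist1h4n (0.66 ± 0.25, adjusted p = 0.021) and Hist1h3f (1.46 ± 0.55, adjusted p = 0.018; named after its value was seen). Without replicate 1 of the F133V cells alone 7 members were called, all lower, and Hist1h4n had an adjusted p of 0.056. In EV cells with DMSO Hist1h1d, another linker histone gene, was lower by 1.15 ± 0.27 and Hist1h4i by 0.42 ± 0.09 on the log2 scale (adjusted p = 0.00066 and 0.00026), and 3 of 42 members were called with the single library alone left without the 2 with Lyz2.

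**Figure D3:**
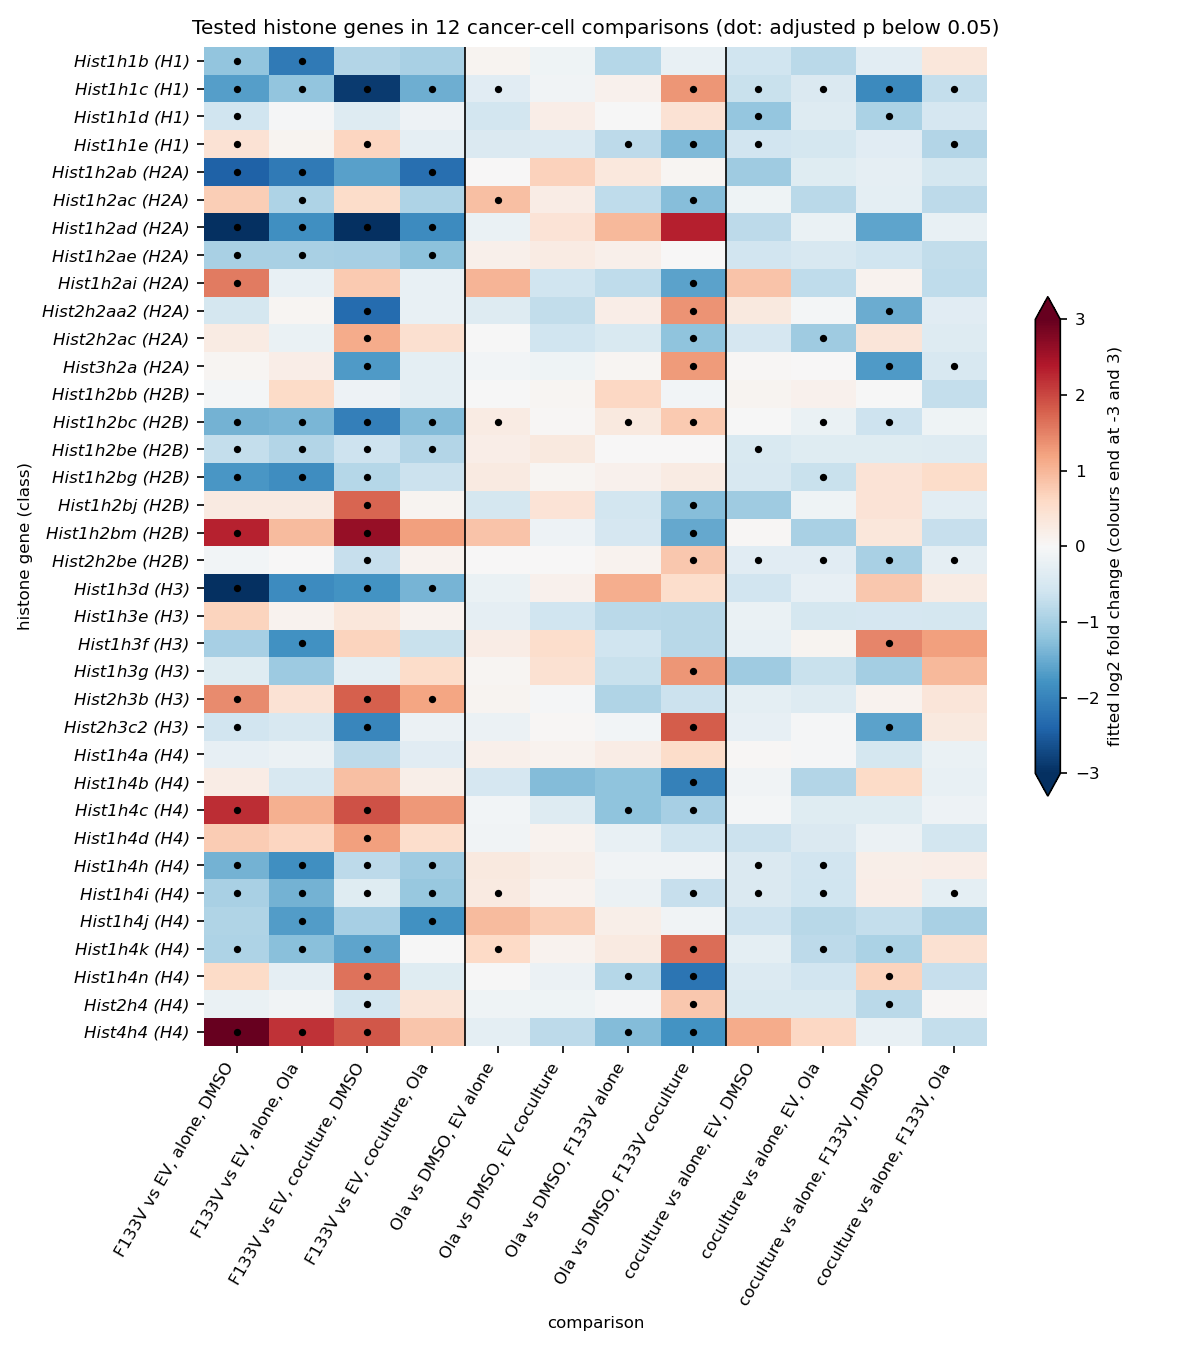
Log2 fold changes of the 36 tested members (rows) in the 12 comparisons of cancer cell groups (columns), first-named group over second. Dots mark adjusted p under 0.05 by edgeR. Hist1h1c is lower in all 4 comparisons of F133V with EV cells and in all 4 of coculture with monoculture.

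The differences between these effects were tested as interactions. In cocultures the olaparib effect differed between F133V and EV cells for 12 members, 8 with a higher and 4 with a lower value in F133V cells, where 67.4% of all genes differed. Hist1h1c had an interaction of 1.41 ± 0.11 and Hist3h2a of 1.40 ± 0.24 on the log2 scale (adjusted p = 2.6e-14 and 2.1e-06). In cells alone 3 members differed (background 24.2%), with 0.46 ± 0.08 for Hist1h1c (adjusted p = 5.3e-05). The coculture effect with DMSO differed between F133V and EV cells for 10 members (background 62.7%), with -1.23 ± 0.11 for Hist1h1c and -1.75 ± 0.23 for Hist3h2a (adjusted p = 5.9e-13 and 2.1e-08). Within F133V cells the olaparib effect differed between coculture and monoculture for 10 members (background 64.5%), with 1.19 ± 0.12 for Hist1h1c (adjusted p = 2e-11).

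S-phase genes give the closest view of replication that these data allow, since no measurement of cell cycle phase was analysed here. Of 43 genes of S phase and DNA replication, 33 were lower and 6 higher in F133V cells alone with DMSO than in EV cells alone with DMSO, with a median log2 difference of -0.52. In the same comparison all 32 genes of G2 and mitosis were lower, with a median of -1.03 and Mki67, a marker of cycling cells, at 55.5 ± 2.77 CPM in F133V cells and 184 ± 3.13 CPM in EV cells. The member median was -0.30, and 67.7% of all genes were called. In cocultures with DMSO, where the summed members were lowest, 31 S-phase genes were lower and 7 higher in F133V cells (median -0.51), beside a member median of -0.48. Single S-phase genes went the other way there. Pcna averaged 145.7 ± 4.65 CPM in F133V cocultures with DMSO and 82.2 ± 1.13 CPM in EV cocultures with DMSO (log2 fold change 0.83 ± 0.03, adjusted p = 9.1e-25). Mcm2, a subunit of the replicative helicase, averaged 156.4 ± 0.45 CPM in the F133V group and 132.0 ± 2.34 CPM in the EV group (0.25 ± 0.03, adjusted p = 4.9e-11). In F133V cocultures olaparib went with 30 higher and 1 lower gene of G2 and mitosis (median 0.72) and with 15 higher and 22 lower S-phase genes (median -0.11), beside a member median of -0.09 that had no stable sign: it was 0.035 without replicate 1 with olaparib and 0.108 under library-size scaling, which moves the median of all genes to 0.231. In EV cells alone olaparib went with 37 higher and 1 lower S-phase genes (median 0.25) and 32 higher genes of G2 and mitosis, while the member median was 0.01 and turned negative without replicate 3 of either treatment. In EV cells with DMSO, coculture went with 13 higher and 4 lower S-phase genes (median 0.07) and 1 higher and 23 lower genes of G2 and mitosis (median -0.22), beside a member median of -0.42. In that comparison the medians of the members and of the S-phase genes had opposite signs.

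**Figure D4:**
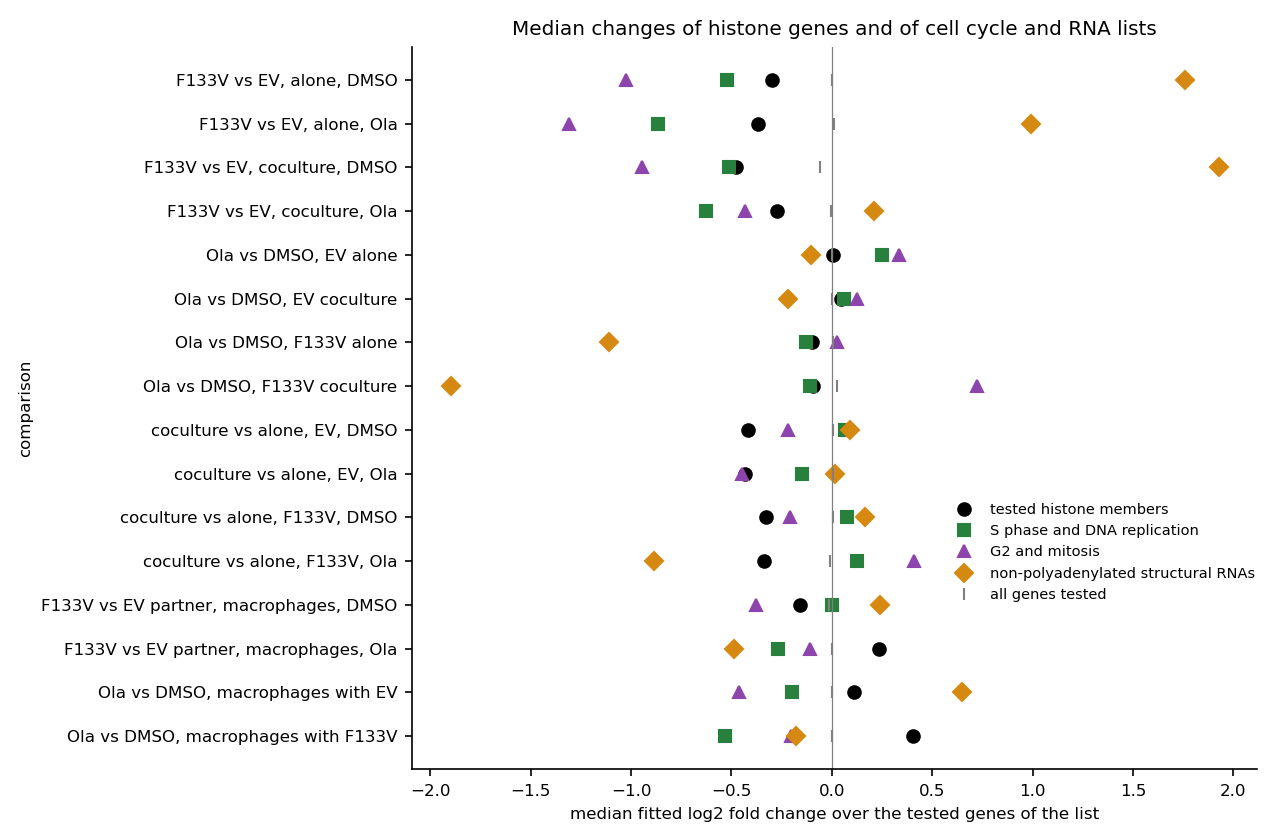
Median log2 fold change over the tested members, the S-phase genes, the genes of G2 and mitosis, the RNAs without a poly(A) tail and all genes tested, in 16 comparisons (first-named group over second). In F133V cocultures the median with olaparib against DMSO is 0.72 for G2 and mitosis, -1.90 for RNAs without a tail and -0.09 for the members, the last of which turns to 0.108 under library-size scaling.

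Factors that make or process histone mRNA moved in F133V cocultures. Slbp, the stem-loop binding protein, averaged 45.7 ± 0.64 CPM in F133V cocultures with olaparib and 74.0 ± 0.71 CPM with DMSO (log2 fold change -0.69 ± 0.04, adjusted p = 3.6e-19). Npat, the coactivator of histone transcription, averaged 46.5 ± 1.14 CPM with olaparib and 90.9 ± 2.87 CPM with DMSO (-0.96 ± 0.04, adjusted p = 2.1e-23), and Casp8ap2, which encodes the processing factor FLASH, fell by 0.87 ± 0.05 on the log2 scale (adjusted p = 6.3e-20). Pcna, the sliding clamp of replication, fell alongside by 1.34 ± 0.03 (adjusted p = 5.1e-31). Of 25 genes of histone transcription and 3′-end processing, 20 were lower and 4 higher, where 76.3% of all genes were called. Against F133V cells alone with DMSO, F133V cocultures with DMSO had 17 of the 25 higher and 4 lower (70.3% of all genes called), with Slbp higher by 0.76 ± 0.04 and Npat by 0.82 ± 0.04 (adjusted p = 8.8e-20 and 7e-21). In EV cells Slbp, Npat and Casp8ap2 did not pass in coculture against monoculture under either treatment. Among the 8 cancer cell groups, F133V cocultures with DMSO had the highest Slbp and Npat and the lowest Hist1h1c and summed members. The 63 members not taken as having a known polyadenylated form were not lowest there, with a sum of 18.96 CPM. Their sum was 15.66 CPM in F133V cocultures with olaparib and 17.24 CPM in F133V cells alone with olaparib. In every other cancer cell group it was higher than in F133V cocultures with DMSO.

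In macrophages the question is whether the genotype of the cancer cells sharing the medium, or olaparib, goes with a difference. With F133V partners and DMSO, 5 of 18 tested members were lower and 1 higher than with EV partners and DMSO (27.8% and 5.6%, background 28.1% and 25.5%, in all 53.6%). With olaparib 2 were higher and 1 lower (background 17.6% each way, in all 35.2%). Olaparib against DMSO gave 8 higher and none lower with F133V partners (44.4%, background 28.5% higher and 29.0% lower), and 3 higher and 1 lower with EV partners (background 14.0% and 14.5%). Of the 18 tested members 14 had at least 10 counts in every macrophage library, and the 50 members not tested had at most 91 counts over the 12 libraries.

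Hist1h1c, the most abundant member in macrophages, differed between partners in opposite directions under DMSO and olaparib. It stood at 33.2, 35.3 and 31.1 CPM with F133V partners and DMSO, against 49.6, 54.2 and 52.5 CPM with EV partners and DMSO (log2 fold change -0.65 ± 0.04, adjusted p = 4.9e-20). With olaparib the order turned, with 57.3, 55.7 and 55.5 CPM with F133V partners and 40.0, 37.7 and 37.4 CPM with EV partners (0.55 ± 0.04, adjusted p = 4.1e-17). The libraries of the partner groups overlapped under neither treatment. Olaparib against DMSO was 0.76 ± 0.04 with F133V partners and -0.44 ± 0.04 with EV partners, and the difference of the olaparib effect between partners was 1.2 ± 0.05 (adjusted p = 1e-24). It was 1 of 7 members with such an interaction, where 49.3% of all genes had one.

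Hist1h4i shared the low value with F133V partners and DMSO, at 2.63, 2.92 and 3.15 CPM, against 4.88, 5.68 and 6.19 CPM with EV partners and DMSO (log2 fold change -0.94 ± 0.11, adjusted p = 1.7e-10). With olaparib it had 6.66, 7.20 and 6.75 CPM with F133V partners and 5.77, 5.81 and 5.98 CPM with EV partners, and that call (0.23 ± 0.09, adjusted p = 0.047) was lost with DESeq2 and whenever 1 library of either group was left out. Hist1h2bc was higher with olaparib with F133V partners, at 22.7, 21.4 and 21.5 CPM, against 13.8, 16.1 and 15.9 CPM with DMSO (0.51 ± 0.05, adjusted p = 1.6e-11). Hist2h2be was higher there too, with 16.2, 14.9 and 15.8 CPM with olaparib and 12.5, 12.3 and 13.0 CPM with DMSO (0.31 ± 0.06, adjusted p = 1.5e-05). Hist1h2ae, an H2A gene, had the largest fold change of the 8, 2.14 ± 0.66 (adjusted p = 0.0046), at 0.233, 0.293 and 0.219 CPM with olaparib and 0.0271, 0.0763 and 0.0548 CPM with DMSO. These values rest on 8, 9 and 8 counts with olaparib and 1, 3 and 2 counts with DMSO. The gene reached 10 counts in every library of 0 of the 4 macrophage groups, so a difference could be built into its selection.

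**Figure D5:**
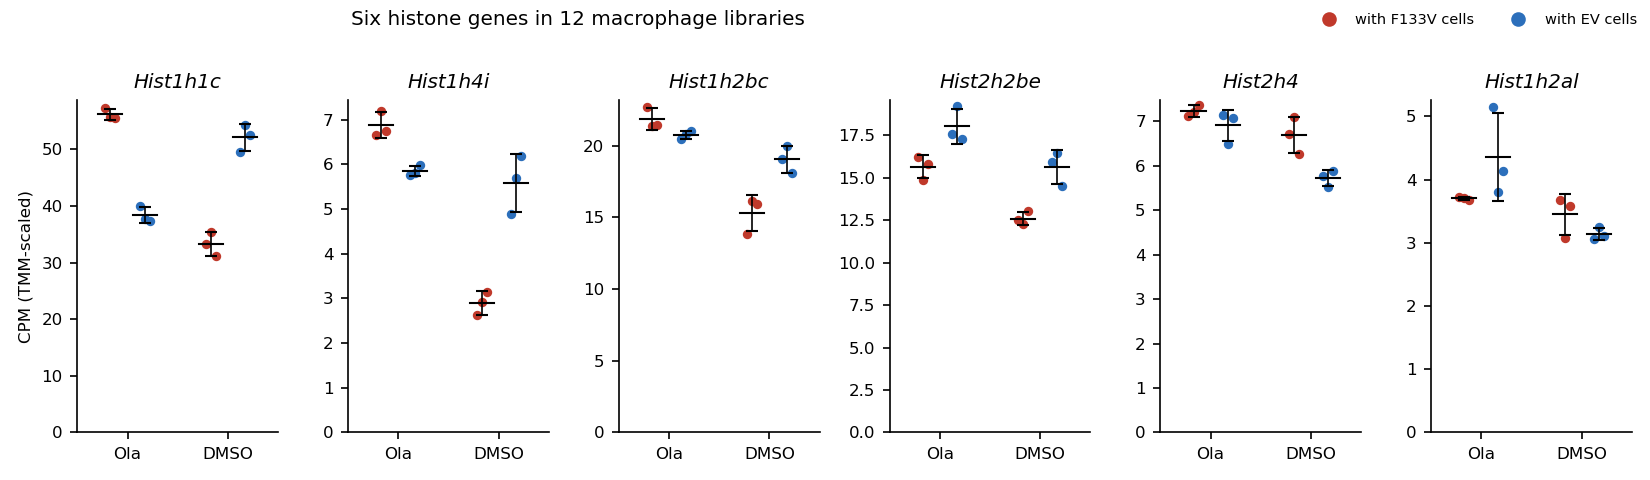
CPM (TMM-scaled) of 6 members in the 4 macrophage groups, 1 point per library with the mean of 3. Hist1h1c averages 56.2 CPM with F133V partners and olaparib, 33.2 with F133V partners and DMSO, 38.4 with EV partners and olaparib and 52.1 with EV partners and DMSO.

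Hist1h2al marked the macrophages. It stood at 3.06 to 5.15 CPM in the 12 macrophage libraries, while no cancer library exceeded 0.0505 CPM. With EV partners it was higher with olaparib, at 5.15, 3.81 and 4.13 CPM, against 3.06, 3.25 and 3.11 CPM with DMSO (log2 fold change 0.47 ± 0.12, adjusted p = 0.002), a call that was lost without replicate 1 with olaparib (adjusted p = 0.0501), when 2 members were called in place of 4. The count files list it as protein-coding, M21 lists it as a processed pseudogene, and it shares 67.6% of its words with other genes. H1f0, a replication-independent linker histone with a polyadenylated mRNA, showed the same order of groups as Hist1h1c. It averaged 257 CPM with F133V partners and olaparib, 164 with F133V partners and DMSO, 208 with EV partners and olaparib and 253 with EV partners and DMSO (F133V against EV partners with DMSO -0.63 ± 0.02, adjusted p = 1.7e-32). With F133V partners olaparib against DMSO gave 39 lower and 2 higher of 43 S-phase genes (median -0.53), beside the member median of 0.40.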

How the data were processed

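RNA-seq was deposited as 1 file per library holding the authors' raw read counts per gene, which are whole numbers with no normalization, followed by HTSeq summary lines. The submitters' processing notes name STAR, TopHat, HTSeq and DESeq2 and the genome build GRCm38. Versions, roles, RNA selection and strand setting: not given in the sources used here. Summary lines were left out of all totals; between 17.15% and 21.51% of counted reads fell in no gene and 1.2% to 1.36% were ambiguous. No 2 libraries of a group were identical, among 36 pairs. For 3 macrophage libraries (EV partner, olaparib) the title omits the partner and the group label was used, and macrophages with F133V partners and DMSO carry the genotype entry SPOP_F133V while the other macrophages are entered as wild type.

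Cancer cells (24 libraries, 8 groups) and macrophages (12 libraries, 4 groups) were fitted apart with the quasi-likelihood F test of edgeR 4.0.16 (R 4.3.3), after TMM scaling and filterByExpr with min.count set to 10. There were 15962 and 14262 genes tested, with 16 and 8 residual degrees of freedom and a common biological coefficient of variation of 2.61% and 1.81%. Calls needed an adjusted p under 0.05 (Benjamini-Hochberg, over all genes tested in that comparison). The SE of each log2 fold change was taken as its size over the root of F. CPM are TMM-scaled, and CPM per kb divides by the union of annotated exons. Stem-loops and overlaps came from GENCODE M21 transcripts, and promoters from RefSeq. The procedure was tested on simulated data. Figures used matplotlib 3.10.9.

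The members, lists and rules were chosen with earlier results of these data known. Members named in the text are the 12 with the highest mean CPM, up to 4 rises and 4 falls per comparison among called members without overlap, those with a known polyadenylated form or known from testis, and up to 4 per interaction. Alternatives were DESeq2 1.42.0, RLE and library-size scaling, no filter, protein-coding genes only, only the groups compared, a replicate block, leaving out each library, and leaving out 2 EV libraries with macrophage transcripts.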

Additional observations from a re-analysis of the deposited data

Results flagged for a closer look

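Differences between effects are given here because the test of the difference itself passed, with values on the log2 scale from edgeR's interaction terms. Only the up to 4 members per interaction with the smallest adjusted p are listed. In cells alone, the olaparib effect in F133V cells minus that in EV cells was 0.457 for Hist1h1c (adjusted p = 5.3e-05), -1.668 for Hist1h2ac (adjusted p = 0.013) and -0.447 for Hist1h4i (adjusted p = 0.022). In cocultures the same difference was 1.412 for Hist1h1c (adjusted p = 2.6e-14), 0.75 for Hist1h2bc (adjusted p = 1.9e-10), 1.403 for Hist3h2a (adjusted p = 2.1e-06) and 0.794 for Hist2h2be (adjusted p = 1.1e-05). The calls of Hist1h4i and Hist1h2ac in cells alone were lost on leaving out 1 library, for instance replicate 1 of the F133V cells with olaparib for Hist1h4i (adjusted p = 0.078) and replicate 3 of the F133V cells with DMSO for Hist1h2ac (adjusted p = 0.066).

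With DMSO, the coculture effect in F133V cells minus that in EV cells was -1.232 for Hist1h1c (adjusted p = 5.9e-13), -1.745 for Hist3h2a (adjusted p = 2.1e-08), -0.626 for Hist1h2bc (adjusted p = 2.6e-08) and -0.623 for Hist2h2be (adjusted p = 0.00029). Within F133V cells, the olaparib effect in coculture minus that alone was 1.19 for Hist1h1c (adjusted p = 2e-11), 0.503 for Hist1h2bc (adjusted p = 8.4e-06), 1.221 for Hist3h2a (adjusted p = 2.4e-05) and 0.701 for Hist2h2be (adjusted p = 5.8e-05). These 4 genes are 4 of the 5 members with a known polyadenylated form, and the interactions share F133V cocultures with DMSO, the group in which each of them was lowest among the 8 cancer cell groups. They are also among the most abundant members, and a choice by smallest adjusted p favours such members. Their overlap with the members with a known polyadenylated form is thus no separate result. In these interactions 12, 10 and 10 members were called, and only these 4 are listed for each.

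In macrophages, the olaparib effect with F133V partners minus that with EV partners was 1.198 for Hist1h1c (adjusted p = 1e-24), 1.171 for Hist1h4i (adjusted p = 9.8e-10), 0.391 for Hist1h2bc (adjusted p = 3e-05) and 0.78 for Hist1h4k (adjusted p = 0.006). The call of Hist1h4k was lost without replicate 3 of the macrophages with EV partners and DMSO (adjusted p = 0.054).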

How the results depend on the processing

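No member changed direction under any alternative run in a comparison for which the naming rule gave it. Hist1h3f, named outside that rule for coculture in F133V cells with DMSO, was not among those followed. Medians over the members that lie near 0 did change sign, for olaparib in F133V cocultures, EV cells alone and EV cocultures and for 2 interactions, and carry no direction. Most counts of called members stayed within 1.5 times the reported one. Without the 2 EV libraries with macrophage transcripts, which leaves 1 EV library alone with DMSO, takes the spread from the other groups and puts 42 members in the test, the count was 11 for F133V against EV cells alone with DMSO (20 reported), 2 for olaparib in EV cells alone (5 reported) and 3 for coculture in EV cells with DMSO (7 reported). DESeq2 gave 3 for olaparib in F133V cells alone (5 reported), a fit on only the groups compared gave 13 for coculture in EV cells with olaparib (8 reported), and scaling by library size gave 5 for macrophage partners with olaparib (3 reported) and 2 for olaparib in macrophages with EV partners (4 reported). The fits without 2 libraries have fewer samples, and for the others the cause was not tested. Leaving out 1 library at a time gave 2 to 5 for olaparib in EV cells alone, 3 to 5 for olaparib in F133V cells alone, 4 to 7 for coculture in EV cells with DMSO, 7 to 14 for coculture in F133V cells with DMSO (11 reported), 3 to 6 with olaparib (5 reported) and 2 to 5 for olaparib in macrophages with EV partners. Scaling by library size shifted the median of all genes to -0.311 for F133V against EV cocultures with DMSO, to 0.231 for olaparib in F133V cocultures and to -0.201 for coculture in F133V cells with DMSO. Its higher and lower calls were 4 and 1 for macrophage partners with olaparib (2 and 1 reported), 1 and 1 for olaparib in macrophages with EV partners (3 and 1 reported), 2 and 4 for olaparib in F133V cells alone (1 and 4 reported) and 2 and 6 for the interaction of genotype and coculture (4 and 6 reported). Per protein-coding count the members summed to 50.3, 34.0, 65.0 and 63.3 CPM in F133V cells (coculture with olaparib, coculture with DMSO, alone with olaparib, alone with DMSO) and 100.4, 101.1, 131.0 and 130.4 in EV cells, and to 132.0 and 94.3 in macrophages with F133V partners (olaparib, DMSO) and 110.7 and 119.5 with EV partners. Replicate numbers did not pair libraries, as no comparison had correlations of deviations above 0.1 for all pairs. With a replicate block 12 members were called in F133V against EV cocultures with olaparib (11 reported), and the block changed no call of a named member. Depth limits the rest: 30 members were tested in neither cell type.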
